A study of Mus musculus with 10 samples.

Results

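Fatty acid binding and uptake in the liver was examined through 8 genes. They were Fabp1, Fabp2, Fabp4, Fabp5 and Fabp7 of the fatty acid binding protein family, the membrane receptor Cd36, and the fatty acid transport proteins Slc27a2 and Slc27a4. All probe sets annotated to 1 of these symbols alone were taken, which gave 15 of the 45037 probe sets that are not array controls, and all 8 genes were among the 12736 genes tested. The group was chosen by gene family, with the measured differences of the comparison below already known, the fall of Fabp5 among them. The members' differences between the groups are therefore a description, and each adjusted p belongs to a fit across every gene or probe set, not to a test of this group.

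The arrays measured liver RNA of 10 mice that all carried the ApoE-/- genotype per the labels, 1 mouse per Affymetrix 430 2.0 array. Of these, 5 mice (replicates 16 to 20) had received an adenovirus with a dominant negative form of cJun (dn-cJun), a subunit of the transcription factor AP-1, and 5 mice (replicates 11 to 15) an adenovirus with the fluorescent protein GFP as the control. The study's title names lipid homeostasis as its subject. The sources used here give neither the age of the mice nor the viral promoter, dose or time after infection. Values are log2(intensity + 16) after quantile normalization, called log2 signal below. In bulk liver RNA, fewer cells of a type and less RNA per cell cannot be told apart.

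Fatty acid binding proteins are small cytosolic proteins that hold long-chain fatty acids and carry them to membranes, enzymes and nuclear receptors. Cd36 binds long-chain fatty acids and modified lipoproteins at the cell surface. The Slc27a proteins couple entry of fatty acids to their activation with coenzyme A. Fabp1 is the abundant form of hepatocytes, whereas Fabp4 and Fabp5 are best known from adipocytes, macrophages and epidermis.

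The arrays differed from their labels or from each other in respects that touch every comparison. Apoe had a log2 signal of 15.31 to 15.82 in the arrays labelled dn-cJun, against 9.42 to 10.94 in the control arrays, although all mice carry the same ApoE-/- label, so the first group is called "labelled dn-cJun" throughout. A difference between the groups cannot be told apart from this Apoe difference, which separates the same arrays. Jun had a log2 difference of -0.07 (standard error, SE, 0.17, limma adjusted p = 0.890) and does not check the virus label, since the sources used here do not say which part of cJun the virus carries. Xist, transcribed from the inactive X chromosome, reached 13.71 (control 14) and 13.63 (control 15), while no other array exceeded 6.72, and Eif2s3y on the Y chromosome read 5.22 and 4.08 there but at least 10.58 elsewhere. By these genes, controls 14 and 15 read as female and the other arrays as male, so sex was mixed in the control group alone. The share of sex in the group differences was not tested beyond leaving these arrays out. Trizol is recorded as the extraction method for control 11 alone, and its share was not tested beyond leaving that array out. The hepatocyte markers were at a summed log2 signal of 18.62 to 18.74 in the arrays labelled dn-cJun and 18.47 to 18.67 in the control arrays. The 3 prime minus 5 prime difference of the Gapdh and Actb control probe sets did not differ past the threshold (exact permutation test over 252 splits, two-sided, adjusted p = 0.429 for each), but for Actb it did with the values as deposited (exact permutation adjusted p = 0.0159).

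Fabp5, the epidermal fatty acid binding protein, fell in the arrays labelled dn-cJun, and no other of the 8 genes passed the threshold. Its deposited intensities were 1932, 1113, 1258, 2070 and 1249 in dn-cJun arrays 16 to 20, and 3950, 2691, 2754, 4032 and 4271 in control arrays 11 to 15. Every array labelled dn-cJun lay below every control array. On the log2 scale the signals were 10.90, 10.33, 10.42, 11.20 and 10.38 in the arrays labelled dn-cJun and 11.70, 11.35, 11.43, 11.99 and 11.90 in the control arrays, with dn-cJun 19 nearest to the control range. Mean signals were 10.65 ± 0.38 for the arrays labelled dn-cJun and 11.67 ± 0.28 for the control arrays (SD, n = 5 each). This gave a log2 difference of -1.03 with an SE of 0.17 and a 95% interval from -1.40 to -0.65, a 2.04-fold lower signal (limma adjusted p = 0.0228 over 12736 genes).

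The second Fabp5 probe set gave the same direction and nearly the same size. Its log2 signals were 9.42, 8.93, 9.15, 9.83 and 8.99 in dn-cJun arrays 16 to 20, and 10.12, 10.01, 10.10, 10.83 and 10.64 in control arrays 11 to 15. The ranges again did not overlap, and controls 14 and 15 were again the highest. It differed by -1.08 on the log2 scale (SE 0.19, limma adjusted p = 0.0282 over 27022 probe sets). Both Fabp5 probe sets were thus called among the 13 above the filter and no other was, where 0.692% of all probe sets above the filter were called and 0.414% were called as lower. With the group means taken out, the 2 probe sets followed each other across the 10 arrays (Pearson r = 0.94, Spearman rho = 0.96, exact permutation within groups, adjusted p = 0.000382 for r and 0.00115 for rho over 11 pairs of probe sets of one gene), and r was 0.89 without the 2 arrays farthest from the median. This adjusted p for r rests on the smallest p that 14400 permutations can give here, 6.94e-05. Whether copies of Fabp5 elsewhere in the genome hybridize to these probe sets was not tested.

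**Figure D1:**
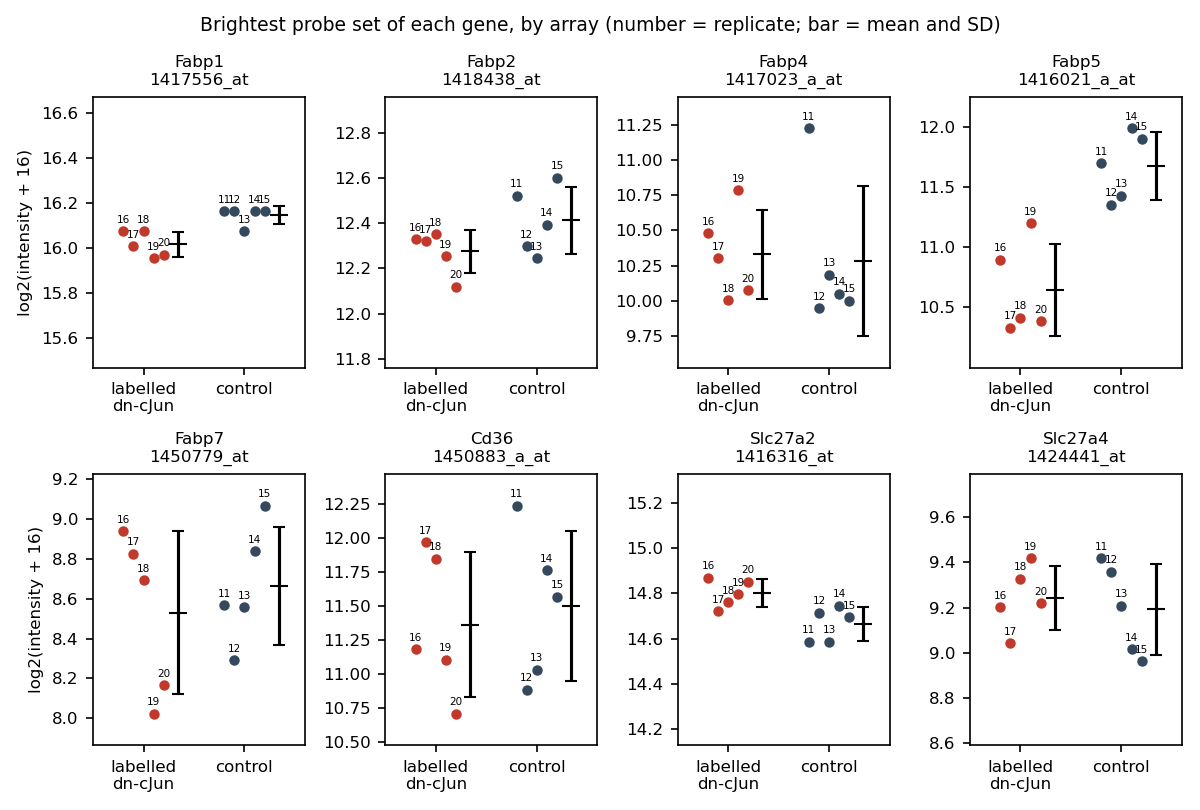
Log2(intensity + 16) after quantile normalization of the brightest probe set of each gene, 1 point per array, for the arrays labelled dn-cJun (red, left) and the control arrays (blue, right), with the mean and SD beside the points and a separate vertical scale in each panel. The groups are separate for Fabp5, at 10.33 to 11.20 in the arrays labelled dn-cJun and 11.35 to 11.99 in the control arrays, and overlap or touch for the other 7 genes.

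The Fabp5 call depended on single arrays, on the variance model, and on controls 14 and 15, the arrays with high Xist and the highest Fabp5. With eBayes run without the intensity trend the adjusted p was 0.0924 for Fabp5 and 0.118 for its second probe set, and none of the 8 genes was called (limma). Without these controls the log2 difference was -0.85 (SE 0.19, limma adjusted p = 0.0677), and that of the second probe set was -0.81 (limma adjusted p = 0.0843). None of the 8 genes was then called (limma), and 0.408% of all genes tested were. Leaving out any 1 array kept the difference between -1.17 and -0.95, with limma adjusted p from 0.0117 to 0.0640. The threshold was missed without dn-cJun 17 (adjusted p = 0.0571), dn-cJun 18 (0.0561), dn-cJun 20 (0.0640) or control 14 (0.0556). The second probe set kept its call in 3 of the 10 such fits, with a difference from -1.22 to -0.95 and limma adjusted p from 0.0201 to 0.0694.

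**Figure D2:**
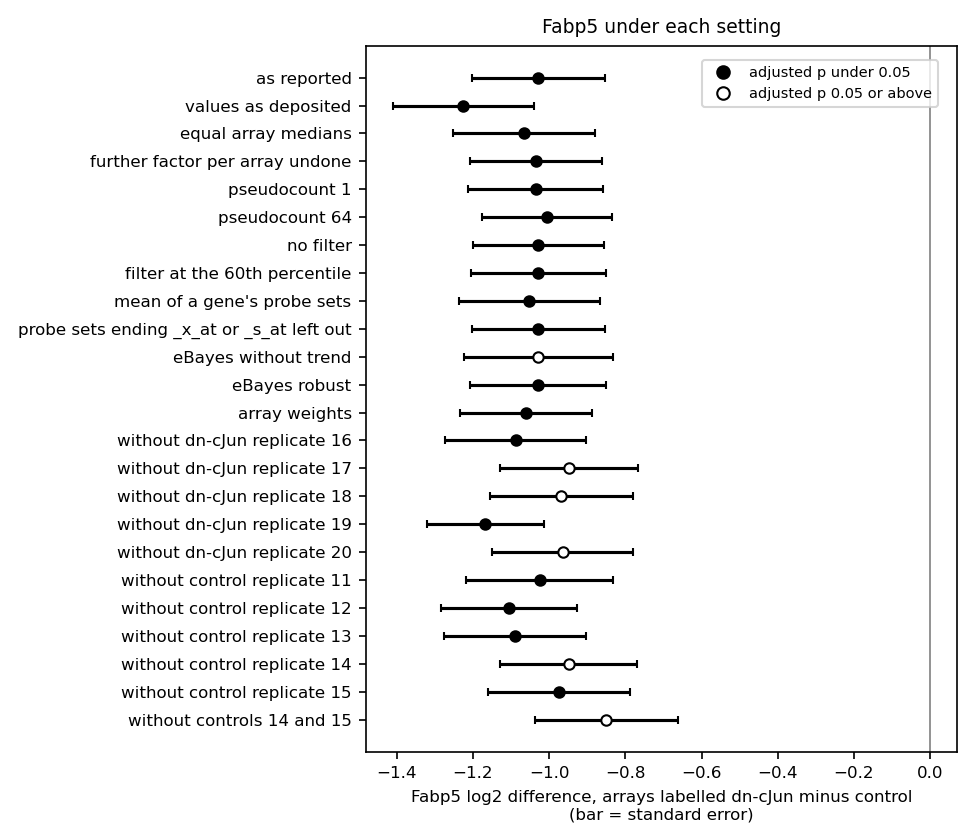
Log2 difference of Fabp5, arrays labelled dn-cJun minus control, with its standard error (bars) under each processing setting and with arrays left out; filled points have an adjusted p under 0.05. The difference lies between -1.23 with the values as deposited and -0.85 without controls 14 and 15, and the open points are the settings where the call was lost.

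Of the 8 genes, 1 was called, and it was lower. Of all 12736 genes tested, 0.777% were called in either direction and 0.432% were called as lower. At an unadjusted p under 0.05, 3 of the 8 genes were reached, where 14.9% of all genes tested were. Non-overlapping ranges were found for 1 of the 8 genes, against 4.22% of all genes tested. Since the members were chosen with this contrast known, nothing is read from these shares. The median log2 difference was -0.13 over the 8 genes, with 3 higher and 5 lower, and 0.0015 over all genes tested.

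Fabp1, the liver fatty acid binding protein, differed by little between the groups, and its direction depended on the scaling. Its deposited intensities were 63116, 72944, 68661, 71841 and 75062 in dn-cJun arrays 16 to 20, and 69278, 65766, 70253, 74133 and 71705 in control arrays 11 to 15, so the groups overlapped as deposited. On the log2 scale Fabp1 averaged 16.02 ± 0.06 for the arrays labelled dn-cJun and 16.15 ± 0.04 for the control arrays (SD, n = 5 each). They differed by -0.13 (SE 0.05, limma unadjusted p = 0.0159, adjusted p = 0.220). Scaling changed its sign, to 0.00054 without normalization, to 0.16 when array medians were set equal, and to 0.19 when a multiplier per array found in the deposited values, of unstated purpose, was removed.

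This Fabp1 probe set was the brightest of all on 4 control arrays and stood between ranks 2 and 6 on the arrays labelled dn-cJun. Quantile normalization gives the brightest probe set the same value on every array, so the 4 control values of 16.16 are equal by construction. Whether these spots were near the scanner's limit was not tested. The other Fabp1 probe set was at 15.74 to 16.01 in the arrays labelled dn-cJun and 15.82 to 15.96 in the control arrays, with a log2 difference of -0.02 (SE 0.05, limma adjusted p = 0.908).

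Promoter sequence was read for the 2 genes besides Fabp5 with an unadjusted p under 0.05, Fabp1 and Slc27a2. They were picked after these values were seen, neither was called, and the direction of Fabp1 depended on the scaling. The sequence therefore does not bear on their differences. The elements searched were chosen because the virus carries a form of an AP-1 subunit and several of these genes are known targets of PPARalpha, a nuclear receptor. The stretches below are the 250 bases before the start of the gene from RefSeq, build GRCm38.p6, plus strand, chr6:71199629-71199878 for Fabp1 and chr2:126552774-126553023 for Slc27a2, written 5′ to 3′. Capitals mark AGGTCA, the element read by many nuclear receptors, here on the opposite strand as TGACCT.
Fabp1: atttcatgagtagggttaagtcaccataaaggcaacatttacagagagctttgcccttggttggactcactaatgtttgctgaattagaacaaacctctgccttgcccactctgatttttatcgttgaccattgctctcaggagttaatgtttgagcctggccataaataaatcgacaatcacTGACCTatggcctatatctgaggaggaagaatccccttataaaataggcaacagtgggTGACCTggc
Slc27a2: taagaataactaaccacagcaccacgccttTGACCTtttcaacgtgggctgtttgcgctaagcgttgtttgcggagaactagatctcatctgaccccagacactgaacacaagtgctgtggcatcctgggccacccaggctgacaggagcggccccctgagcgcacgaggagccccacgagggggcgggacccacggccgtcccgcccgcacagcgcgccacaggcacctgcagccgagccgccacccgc
Counted from the start of the gene, the element began at positions -67 and -9 in Fabp1 and at -220 in Slc27a2. Of the 8 genes, 6 matched the promoter table, all but Fabp4 and Fabp5, and 4 of these 6 (Cd36, Fabp1, Fabp7 and Slc27a2) held the element on either strand within 250 bases before to 50 after the start, where 16.3% of 32851 such windows did. The AP-1 element TGANTCA, searched on both strands, was in 0 of the 6 windows and in 7.81% of all windows. A match is a description of the letters and not a bound site.

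Fabp2, the intestinal form, was at 12.33, 12.32, 12.35, 12.26 and 12.12 in dn-cJun arrays 16 to 20, and at 12.52, 12.30, 12.25, 12.39 and 12.60 in control arrays 11 to 15. The ranges overlapped, with dn-cJun 20 the lowest and control 15 the highest. Fabp2 differed by -0.14 (SE 0.08, limma adjusted p = 0.448), with a 95% interval from -0.31 to 0.03. Among enterocyte markers, Vil1, Lct, Cdx1, Cdx2 and Muc2 were below the level required for testing, and the only marker tested, Alpi, had a log2 difference of 0.03 (SE 0.31, limma adjusted p = 0.981), with no enterocyte marker at an unadjusted p under 0.05.

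Fabp4, the form of adipocytes and macrophages, did not differ beyond the spread between mice in its brightest probe set. Its deposited intensities were 1427, 1091, 933, 1546 and 1013 in dn-cJun arrays 16 to 20, and 2878, 993, 1148, 1040 and 1169 in control arrays 11 to 15. Control 11, for which alone Trizol is recorded as the extraction method, stood above all the others. The remaining 4 controls lay within the range of the arrays labelled dn-cJun as deposited, and on the normalized scale controls 12 and 15 lay just below it. The log2 difference was 0.05 (SE 0.22, limma adjusted p = 0.943) and 0.28 without control 11, with a 95% interval from -0.44 to 0.53 over all arrays.

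Of the other Fabp4 probe sets, 1 dim one had separate ranges in the groups, and the difference between probe sets was not tested. The next brightest was at 8.29 to 8.98 in the arrays labelled dn-cJun and 8.26 to 10.31 in the control arrays, again with control 11 highest, and had a log2 difference of -0.23 (SE 0.32, limma adjusted p = 0.817). A dimmer probe set was at 6.41, 5.79, 6.67, 6.43 and 6.66 in dn-cJun arrays 16 to 20, and at 4.90, 4.45, 5.64, 4.72 and 5.74 in control arrays 11 to 15. Its ranges did not overlap, with a log2 difference of 1.30 (SE 0.33), but it lay below the filter and did not pass in the fit without a filter (limma adjusted p = 0.142 over 45037 probe sets). Ranges that do not overlap were found in 3 of the 15 probe sets, this one and both of Fabp5, against 2.59% of all probe sets. The fourth, also below the filter, had a log2 difference of 0.21 (SE 0.37). With group means removed, the 2 brighter probe sets had r = 0.84 and rho = 0.67 across the 10 arrays (exact permutation adjusted p = 0.0689 for r and 0.156 for rho), and r was 0.55 without the 2 arrays farthest from the median, control 11 among them.

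**Figure D3:**
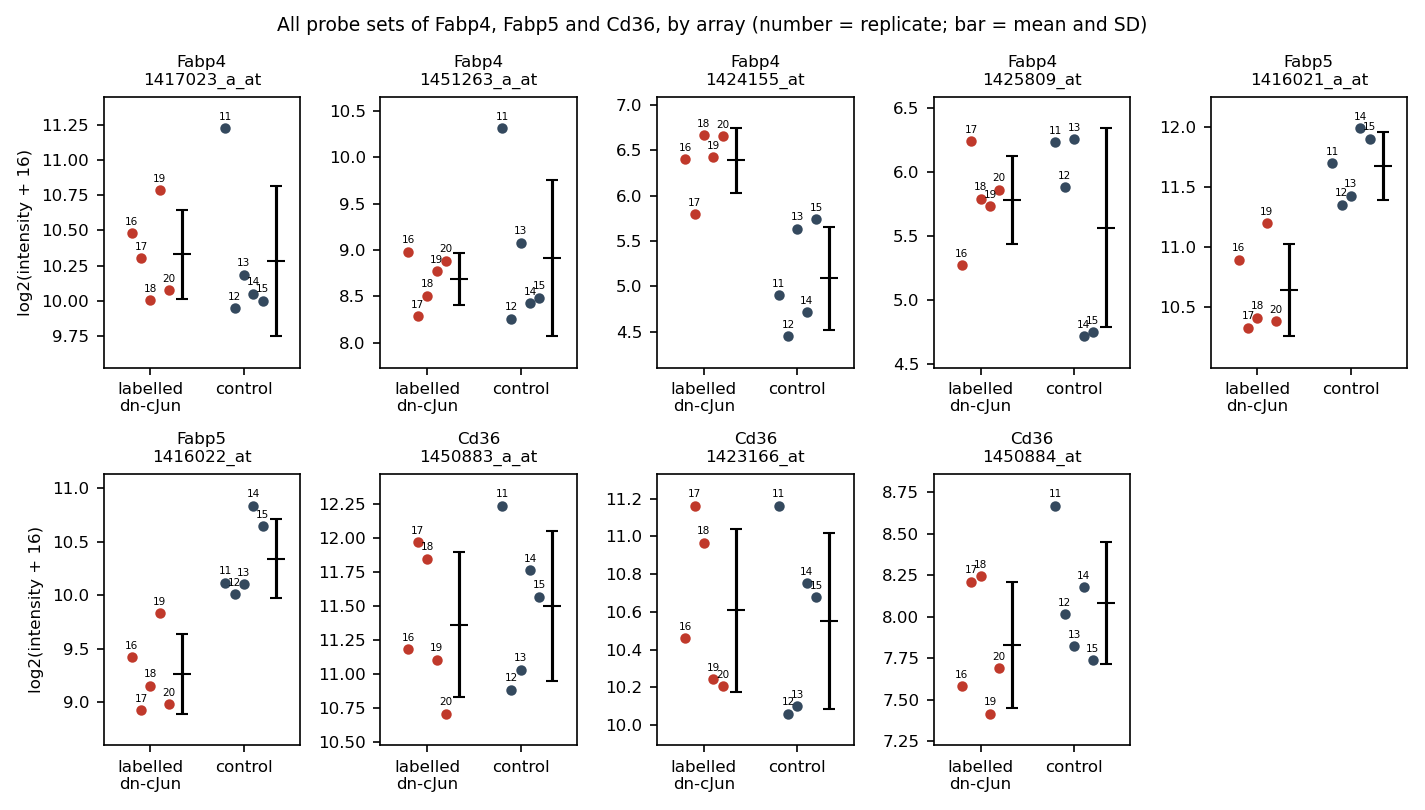
Log2(intensity + 16) after quantile normalization of every probe set of Fabp4, Fabp5 and Cd36, 1 point per array with its replicate number, arrays labelled dn-cJun in red on the left and control arrays in blue on the right, mean and SD beside the points, and a separate vertical scale in each panel. Both Fabp5 probe sets are lower in the arrays labelled dn-cJun, and 1 dim Fabp4 probe set is higher there at 5.79 to 6.67 against 4.45 to 5.74. The brighter Cd36 probe sets vary together across the arrays, and the dimmest follows them less closely.

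Fabp7, the brain form, whose mRNA is known to cycle over the day in mice, varied widely within the arrays labelled dn-cJun. Its log2 signals there were 8.94, 8.82, 8.69, 8.02 and 8.17 in arrays 16 to 20, and 8.57, 8.29, 8.56, 8.84 and 9.06 in control arrays 11 to 15. The 2 lowest arrays were dn-cJun 19 and 20 and the highest was control 15. Fabp7 differed by -0.13 (SE 0.20, limma adjusted p = 0.803), with a 95% interval from -0.56 to 0.29, and 0.06 without controls 14 and 15. Nr1d1, a clock repressor known to act on Fabp7 in mice, was at 6.06 to 8.68 in the arrays labelled dn-cJun and 9.06 to 9.34 in the control arrays, with a log2 difference of -1.44 (SE 0.36, limma adjusted p = 0.0935), and this gene was picked out after its values were seen. Of the neural and Schwann cell markers, 3 of 6 were tested and none was called or had an unadjusted p under 0.05 (limma), and Gfap had the smallest p, at 0.61 (SE 0.38, adjusted p = 0.490).

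Cd36 differed more between mice of the same group than between the groups. The log2 signals of its brightest probe set were 11.18, 11.97, 11.85, 11.10 and 10.71 in dn-cJun arrays 16 to 20, and 12.24, 10.88, 11.03, 11.76 and 11.57 in control arrays 11 to 15. High and low arrays occurred in both groups, with control 11, the array recorded as Trizol extracted, the highest and dn-cJun 20 the lowest. Cd36 differed by -0.13 (SE 0.27, limma adjusted p = 0.861), with a 95% interval from -0.72 to 0.45. It was 0.05 without control 11 and 0.03 without dn-cJun 20. The other 2 probe sets gave 0.06 (SE 0.23) and -0.26 (SE 0.21), with limma adjusted p of 0.943 and 0.655.

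The spread of Cd36 between mice was shared by its 2 brighter probe sets and less closely by the dimmest. With group means removed, the 2 brighter ones had r = 0.98 and rho = 0.96 across the 10 arrays (exact permutation adjusted p = 0.000382 and 0.000764), and r was 0.97 without the 2 arrays farthest from the median. The dimmest followed them at r = 0.81 and 0.79 (exact permutation adjusted p = 0.0430 and 0.0474). Its rho was 0.65 and 0.64 (exact permutation adjusted p = 0.163 for each), and its r was 0.60 and 0.57 without the 2 farthest arrays.

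Slc27a2, the transport protein of hepatocytes that also activates very long-chain fatty acids, was at 14.87, 14.72, 14.76, 14.80 and 14.85 in dn-cJun arrays 16 to 20, and at 14.59, 14.72, 14.59, 14.75 and 14.70 in control arrays 11 to 15. Controls 11 and 13 were the lowest, and the ranges overlapped between 14.72 and 14.75. Slc27a2 averaged 14.80 ± 0.06 for the arrays labelled dn-cJun and 14.67 ± 0.08 for the control arrays (SD, n = 5 each). It differed by 0.13 (SE 0.05, limma unadjusted p = 0.0284, adjusted p = 0.271), and under the other settings and with arrays left out it lay between 0.11 and 0.30 without passing the threshold. Slc27a4, a transport protein of intestine, skin and other tissues, was at 9.04 to 9.42 in the arrays labelled dn-cJun and 8.96 to 9.42 in the control arrays, with a log2 difference of 0.05 (SE 0.11, limma adjusted p = 0.883). Its 2 lowest arrays were controls 15 and 14, at 8.96 and 9.02, and without them the difference was -0.09.

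**Figure D4:**
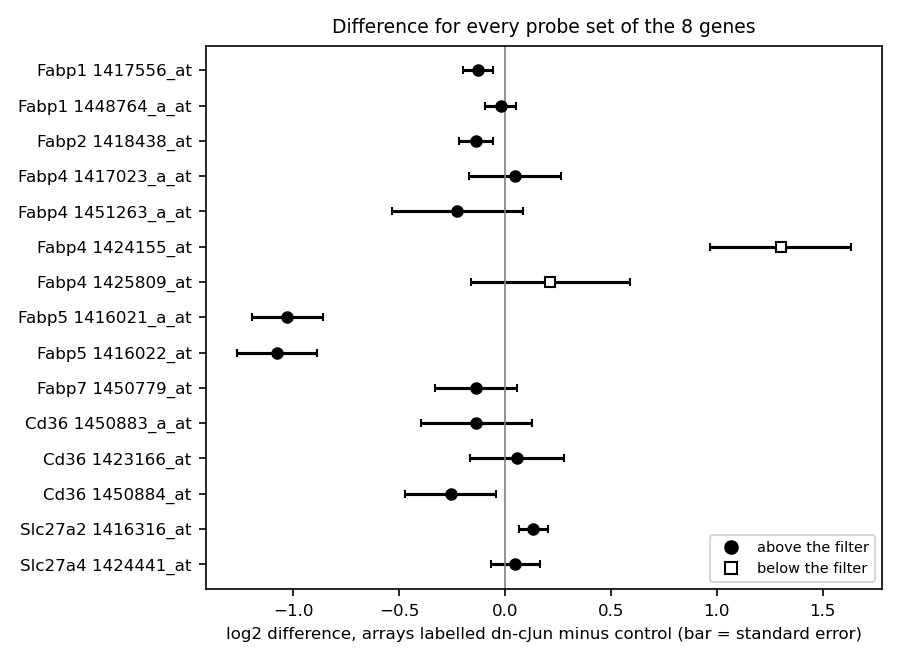
Log2 difference, arrays labelled dn-cJun minus control, of all 15 probe sets with the standard error of the fit without a filter (bars); filled circles are probe sets above the filter and open squares the 2 Fabp4 probe sets below it. Both Fabp5 probe sets lie near -1, 1 dim Fabp4 probe set at 1.30, and the other 12 probe sets between -0.26 and 0.21.

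Fabp5 and Fabp4 lie near each other on mouse chromosome 3, with Fabp12, Fabp9 and Pmp2 of the same family beside them, and none of the nearest tested genes was called with Fabp5. The nearest tested genes were picked out after their values were seen. Fabp4 and Fabp12, the next tested genes on one side, had log2 differences of 0.05 (SE 0.22) and -0.06 (SE 0.32), and Pag1, the next on the other side, -0.20 (SE 0.15). Among the 5 nearest tested genes on either side the differences ran from -0.20 to 0.34 (limma adjusted p from 0.0695 to 0.962), with Mrps28 and Zfp704 at an unadjusted p under 0.05. The difference between Fabp5 and these genes was not itself tested.

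**Figure D5:**
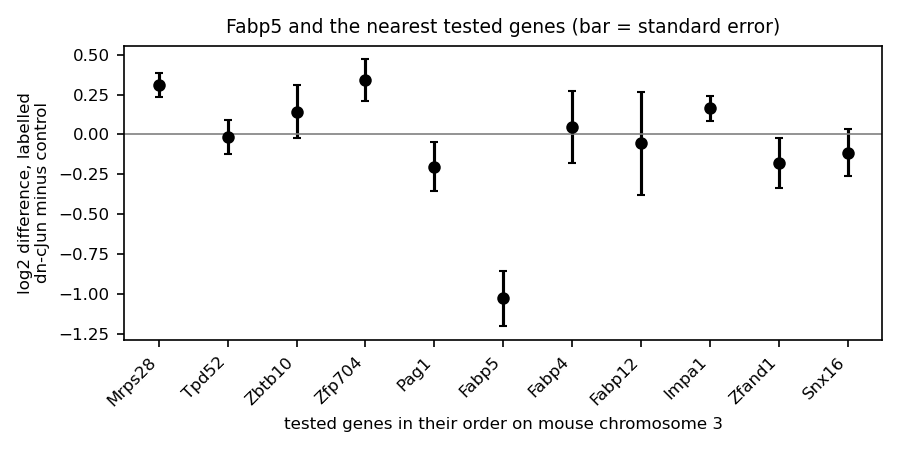
Log2 difference, arrays labelled dn-cJun minus control, with its standard error (bars) for Fabp5 and the 5 nearest tested genes on either side, in their order on mouse chromosome 3 without distances. Fabp5 lies at -1.03 and its neighbours between -0.20 and 0.34.

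The 8 genes did not vary together from mouse to mouse beyond what the 10 arrays can show. With group means removed, which makes this measure independent of the contrast, 28 pairs of genes were compared and none passed (exact permutation within groups, two-sided, adjusted over 28 pairs). An unadjusted p under 0.05 was found for 4 pairs, for 1 with array medians set equal, and for 2 without controls 14 and 15. Fabp1 with Fabp2 was among the 4 (r = 0.62, exact permutation p = 0.03), and had r = -0.07 with equal medians. Most control values of Fabp1 are tied by the quantile normalization, so its pairs say little about variation between mice. The pair under 0.05 with equal medians was Fabp2 with Fabp7 (r = 0.86, rho = 0.85, exact permutation p = 0.005, adjusted p = 0.14). That pair gave r = 0.66 with quantile normalization (exact permutation p = 0.0319, adjusted p = 0.224) and r = 0.55 without controls 14 and 15 (exact permutation p = 0.117). With equal medians the exact permutation p was 0.0854 for Fabp2 with Cd36 and 0.221 for Fabp7 with Slc27a4. With quantile normalization over all 10 arrays, the smallest p was that of Fabp2 with Cd36 (r = 0.74, rho = 0.76, exact permutation p = 0.0264 and 0.0219, adjusted p = 0.224 and 0.249, r = 0.86 without the 2 farthest arrays). Fabp7 with Slc27a4 ran in opposite directions (r = -0.71, rho = -0.73, exact permutation adjusted p = 0.224 and 0.249, r = -0.55 without the 2 farthest arrays). Fabp5 with Cd36 gave r = 0.07. Fabp5 with Fabp4 gave r = 0.39 and rho = 0.47 over the 10 arrays. Without controls 14 and 15 that pair gave r = 0.73 and rho = 0.52 over 8 arrays (exact permutation p = 0.0125 and 0.103, adjusted p = 0.272 and 0.533), and r = 0.50 without the 2 farthest of these.

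The genes whose group-centred signal was most like that of a member over the 10 arrays were named by Pearson r alone, with no p because they were picked for it among 12736 genes. For Fabp5 these were Pop1 (r = 0.95), Ptpro (0.92), Zfp113 (0.91), Zfp759 (0.91) and Lrch1 (0.89), none of them called between the groups. Cd36 was followed most closely by Psmd1, a proteasome subunit, and Ly6d (r = 0.99 and 0.98). Fabp4 was followed by Chic2 and by Mmp13, a collagenase (r = 0.95 for each, rho = 0.81 and 0.88). Control 11 lay farthest from its group mean for Fabp4, at 0.94, and how far these r rest on that array was not tested. Mmp13 was itself lower in the arrays labelled dn-cJun, at -1.29 (limma adjusted p = 0.0232), whereas Fabp4 was not called. The nearest genes were Mtbp and Sycp3 for Fabp1, BC029722 and Morrbid for Fabp2, Nrp2 and Mrpl3 for Fabp7, Tcl1b3 and Dbt for Slc27a2, and Tlcd2 and Tspan31 for Slc27a4, at r between 0.91 and 0.95. Most control values of Fabp1 are tied by the quantile normalization, so its nearest genes say little about variation between mice.

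Of 20 other genes of fatty acid binding, transport and activation, 18 had a probe set of their own and 12 were tested, 6 higher and 6 lower with a median log2 difference of 0.04. None was called (limma), and 1 had an unadjusted p under 0.05, where 14.9% of all genes tested did. That gene was Got2, a mitochondrial aminotransferase also described as a fatty acid binding protein of the plasma membrane, at 0.17 (SE 0.06, adjusted p = 0.175). Slc27a5, the bile acid and fatty acid coenzyme A ligase of hepatocytes, was at 0.08 (SE 0.12). The acyl-coenzyme A synthetases Acsl4, Acsl5 and Acsl3 were at 0.31 (SE 0.16), -0.0036 (SE 0.07) and -0.04 (SE 0.15). In the family itself, the heart form Fabp3 was at -0.16 (SE 0.24), while Fabp6, Fabp9 and Pmp2 were below the level required for testing. Of 5 related retinoid binding proteins only Rbp7 was tested, at 4.73 to 7.19 in the arrays labelled dn-cJun and 6.16 to 8.17 in the control arrays. Its log2 difference was -1.20 (SE 0.48, limma unadjusted p = 0.0276, adjusted p = 0.269). Rbp7 reached the level required for testing, 6.06, only through the control arrays, with a mean of 6.88 there and 5.68 in the arrays labelled dn-cJun. Nothing is therefore read from its difference.

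Of 19 regulators known to act on these genes or on AP-1 sites, 18 were tested, with 10 higher, 8 lower and a median log2 difference of 0.02. Cebpb, a C/EBP family factor, was the only one called and rose. Of all genes tested, 0.777% were called (limma), 0.345% as higher, and 14.9% had an unadjusted p under 0.05. At an unadjusted p under 0.05 were 5 of the 18, Cebpb, Nr1d1 at -1.44 with non-overlapping ranges, and the nuclear receptors Rxra, Nr1i2 and Hnf4a at 0.25 (SE 0.11), 0.25 (SE 0.10) and 0.21 (SE 0.08). Cebpb had log2 signals of 13.01, 12.95, 12.92, 13.12 and 13.03 in dn-cJun arrays 16 to 20, and 12.78, 12.53, 12.67, 12.64 and 12.63 in control arrays 11 to 15. The ranges did not overlap, and the log2 difference was 0.36 (SE 0.06, limma adjusted p = 0.0274). It was 0.35 without controls 14 and 15, where the call was lost (limma adjusted p = 0.0754). Ppara, the fatty acid receptor of hepatocytes, was at 0.12 (SE 0.12, limma adjusted p = 0.712), and Pparg, which controls Fabp4 in adipocytes, at -0.24 (SE 0.11, limma adjusted p = 0.362).

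Markers of other cell types were mostly not called. Of all genes tested, 0.777% were called (limma), 0.432% as lower, and 14.9% had an unadjusted p under 0.05. Of 16 macrophage and Kupffer cell markers 15 were tested, and 10 were lower and 5 higher, with 2 called as lower. These were Lyz2, lysozyme, at -0.70 (SE 0.13, limma adjusted p = 0.0294), and Cd5l, a secreted macrophage protein, at -0.57 (SE 0.11, limma adjusted p = 0.0323). Lyz2 was still called with controls 14 and 15 left out, at -0.65 (limma adjusted p = 0.0367), and Cd5l was not, at -0.49 (limma adjusted p = 0.105). The summed log2 signal of the list was 15.27 to 15.46 in the arrays labelled dn-cJun and 15.20 to 15.81 in the control arrays. At an unadjusted p under 0.05 were 3 of the list, Lyz2, Cd5l and Cd68, all lower, Cd68 at -0.27 (SE 0.12) without being called. Other members not called included the Kupffer cell marker Clec4f at -0.15 (SE 0.22), Marco at 0.24 (SE 0.58) and Cd163 at 0.45 (SE 0.40). Marco ran from 4.52 to 7.90 in the control arrays, and the control mean of Cd163, 5.96, was below the level required for testing, 6.06. The other higher markers, Vsig4, Mpeg1 and C1qa, were at 0.05, 0.02 and 0.03. Of the lower markers, Itgam at -0.27 (SE 0.32) reached the level required for testing only through the control arrays. Its mean was 6.24 there and 5.96 in the arrays labelled dn-cJun, and nothing is read from its difference. Timd4 was below the level required for testing. The part of these cells in the fall of Fabp5 was not tested. The 12 endothelial markers were all tested, with 9 higher, 3 lower and none called (limma), and 1, Tek, had an unadjusted p under 0.05, at 0.27 (SE 0.11, adjusted p = 0.274). Their summed log2 signal was 13.26 to 13.34 in the arrays labelled dn-cJun and 13.09 to 13.29 in the control arrays. Of 8 adipocyte markers 3 were tested and none was called or had an unadjusted p under 0.05 (limma), Car3 at 0.21 (SE 0.10) having the smallest p, and Adipoq, Lep and Retn were below the level required for testing. The hepatocyte markers had 9 of 9 tested genes higher, none called (limma), with 1 at an unadjusted p under 0.05, Tat at 0.79 (SE 0.31, adjusted p = 0.262).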

How the data were processed

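Probe set intensity values on a linear scale were deposited for 10 arrays, with the authors' software not given in the sources used here. Its effect is unknown. The members and gene lists were chosen with earlier results of these data known. On the log2(intensity + 16) scale the medians of the arrays spanned 0.502, above the limit of 0.1, so quantile normalization was applied (limma 3.58.1, R 4.3.3). The 64 control probe sets were left out. Of the rest, 34945 had 1 gene symbol, 932 several and 9160 are unnamed here. Of several probe sets for a gene the brightest on average was kept, and the gene was tested if this average reached the 40th percentile of all probe sets (a log2 signal of 6.06), which kept 12736 of 18193 genes, all 8 members and 13 of their 15 probe sets. Entrez identifiers matched all 8 member symbols in a mouse table of assembly GRCm38.p6. Groups were compared with limma (lmFit, eBayes with an intensity trend), arrays labelled dn-cJun minus control. P-values are two-sided and adjusted by Benjamini-Hochberg, and calls are made at 0.05. Further probe sets were fitted among 27022 probe sets above the filter, and the 2 below it among all 45037. Correlations use exact permutation within groups (Python 3.11.15). The pairs of probe sets of one gene were chosen after seeing the data. The genes named are every member, Apoe and Jun, the called genes and the smallest p of each list, and the genes most like a member. Acsl genes, markers below the filter and other examples were picked knowing their values. Simulated data served to test the fit. The number of arrays limits the precision, and replicate numbers do not repeat between groups. Alternatives were other scalings, pseudocounts of 1 and 64, no filter or the 60th percentile, other probe set rules, other variance models, array weights and arrays left out. Figures were drawn with matplotlib 3.10.9.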

Additional observations from a re-analysis of the deposited data

Results flagged for a closer look

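Within groups of 5 arrays, 4 values stood apart from the rest of their group by Dixon's criterion. The check covered 30 groups of member values and 20 of other genes. Chance gives about 1 in 20 for independent groups without ties, whereas some groups here hold probe sets of the same gene. In the control arrays Fabp4 was at 11.23 in control 11, 0.816 of the group's range away from the next. Fabp1 was at 16.08 in control 13, where the other 4 controls shared the top rank. Those 4 values are equal by quantile normalization, so the tie alone fixed this flag and the chance rate does not apply to it. Cd5l was at 13.05 in control 12, and in the arrays labelled dn-cJun Nr1d1 was at 6.06 in dn-cJun 20.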

How the results depend on the processing

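The Fabp5 difference kept its sign in every setting run, and its call in 11 of 13 settings besides those with 1 array left out, the exceptions being eBayes without the trend (-1.03, limma adjusted p = 0.0924) and the fit without controls 14 and 15 (-0.85, limma adjusted p = 0.0677). In those 2 settings the number of member genes called was 0. With 1 array left out it was 0 to 1, and Fabp5 lay between -1.17 and -0.95. The second Fabp5 probe set was called in only 3 of the 10 fits that drop an array. Genes called numbered 99, and 490 without normalization, 65 with medians set equal, 44 with probe sets averaged per gene, 9 without the trend, 52 without controls 14 and 15, and 13 to 199 with 1 array left out. Probe sets called numbered 187, and 651 as deposited, 109 with equal medians, 21 without the trend, 78 without controls 14 and 15, and 47 to 246 with 1 array left out. The cause of these shifts was not tested. Signs turned only for members that were never called. As deposited, Fabp1 was at 0.00054, Fabp4 at -0.16 and Slc27a4 at -0.17. With equal medians they were at 0.16, -0.00066 and -0.0055, and Fabp1 was at 0.19 with the multiplier per array removed. Without controls 14 and 15, Fabp4 was at -0.12, Fabp7 at 0.057 and Slc27a4 at -0.087. With 1 array left out Cd36 ran from -0.29 to 0.051, Fabp4 from -0.065 to 0.28 and Slc27a4 from -0.0086 to 0.11. As deposited, the 3 prime minus 5 prime difference between the groups was -0.031 for Gapdh, against 0.03, and 0.12 for Actb (exact permutation adjusted p = 0.0159). No gene pair passed with equal medians or without controls 14 and 15. No paired analysis was possible because the groups share no replicate number. A difference of dim probe sets is understated on the log2(intensity + 16) scale.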
